A study of Rattus norvegicus with 9 samples.

Results

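The genes described here belong to the glucose response of the liver: Mlxipl, the gene for the carbohydrate response element binding protein (ChREBP), its partner Mlx, and 6 genes known to respond to glucose, namely Rgs16, Txnip, Arrdc4, Pklr, Khk and Gpd1. They were chosen by gene symbol from a list drawn up with earlier results of these arrays in view, among them the high Rgs16 level after cell transplantation. Of the 8 genes, 7 had a probe set named for them alone, among 18166 genes named on the array, and all 7 passed the filter on dim genes. No probe set carried the name Mlxipl alone in the annotation used, so ChREBP itself was not analysed here.

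Whole-transcript Affymetrix arrays measured RNA from livers of female F344 rats. Every animal had 2 injections of the plant alkaloid retrorsine at 30 mg/kg, which keeps most hepatocytes from dividing, and then a partial hepatectomy, after which small hepatocyte-like progenitor cells (SHPCs) form growing clusters. There were 3 groups of 3 arrays: SHPC clusters of livers given sorted Thy1+ cells through the spleen (transplanted SHPCs), SHPC clusters of livers without transplantation, and hepatocytes beside SHPC clusters in livers without transplantation. A free-text label of the hepatocyte arrays names transplanted SHPCs instead, and the cell type label was followed here. The donor cells came from DPPIV+ rats and the recipients were DPPIV−. All material was cut by laser from frozen sections of 7 µm. The number of animals behind the 9 arrays is not known here. The p-values therefore measure the spread between arrays, which may in part be technical.

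ChREBP is a transcription factor that is switched on by sugar phosphates made from glucose. It binds DNA as a pair with Mlx, at carbohydrate response elements built from a pair of E-box-like sites, and in liver it raises genes that turn sugar into pyruvate and fat. Txnip and Arrdc4 are classical targets whose products, both alpha-arrestins, restrain glucose uptake. Rgs16 shortens signalling by G proteins and is known in mouse liver as a ChREBP-dependent gene.

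Values are log2 intensities, and because each probe set has its own efficiency they compare a gene across arrays and not 1 gene with another. A principal component with 54.4% of the variance placed SHPC array 2 at 54.1 and hepatocyte array 2 at 42.2, apart from the other 7 arrays. Of these, the transplanted SHPC arrays lay at −22.8 to −20.4 and the untransplanted ones at −13.8 to 2.30, so the groups also differed along this component. Differences of the 7 measured genes between the SHPC groups are given with and without SHPC array 2. For the genes listed around them, most single differences are given only with both of these arrays included. The hepatocyte markers Alb, Ttr, Hnf4a, Tat, Cps1 and Serpina1 were all measured above the dim level, with a summed linear intensity of 30085 to 30958 on transplanted SHPC arrays, 27063 to 29997 on SHPC arrays and 26363 to 28292 on hepatocyte arrays. Summed Kupffer cell and macrophage markers, 7 of 7 measured, were at 2150 to 2775 on transplanted SHPC arrays, 1096 to 1832 on SHPC arrays and 1470 to 2102 on hepatocyte arrays. All 7 were above 0 in log2 change between the SHPC groups, with a median of 0.67, and the scavenger receptor gene Marco was 0.80 ± 0.16 higher in transplanted SHPCs than in hepatocytes (limma adjusted p = 0.0456). Stellate cell and fibroblast markers summed to 688 to 850 on transplanted SHPC arrays, 437 to 654 on SHPC arrays and 512 to 776 on hepatocyte arrays. Cholangiocyte markers summed to 109 to 133 on transplanted SHPC arrays, 106 to 111 on SHPC arrays and 87.9 to 107 on hepatocyte arrays, and the measured 2 of 5 endothelial markers to 395 to 492, 285 to 406 and 343 to 449 in the same order. Of the cholangiocyte genes, Epcam was 0.74 ± 0.28 higher in transplanted SHPCs than in SHPCs and 0.89 ± 0.28 higher than in hepatocytes (limma adjusted p = 0.634 and 0.257). Krt19 differed by 0.08 and 0.47 in the same order. Krt7 and Sox9 went the other way, by −0.35 and −0.33 against SHPCs and −0.19 and −0.30 against hepatocytes. Without both arrays that stood apart, Epcam and Krt19 passed in limma against hepatocytes. T and NK cell markers summed to 84.7 to 85.7 on transplanted SHPC arrays, 76.0 to 94.0 on SHPC arrays and 67.6 to 75.8 on hepatocyte arrays. Of these, Cd3e lay at 3.13 to 3.85 on the log2 scale, near the 25th percentile of the arrays at 2.85 to 3.14, while Prf1 lay at 4.65 to 5.46 and was 0.46 ± 0.14 higher in transplanted SHPCs than in hepatocytes (limma adjusted p = 0.232). In SHPCs without transplantation Prf1 was 0.52 ± 0.14 higher than in hepatocytes (limma adjusted p = 0.567), and the SHPC groups differed by −0.06. The part of these other cells in the results was not tested. In tissue cuts such as these, fewer cells of a type and less RNA per cell cannot be told apart.

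Mlx (probe set 17651181), the partner of ChREBP, was at 7.85, 7.71 and 7.93 on the transplanted SHPC arrays, 7.73, 7.46 and 7.72 on the SHPC arrays, and 7.84, 7.19 and 7.60 on the hepatocyte arrays. The groups overlapped. The SHPC groups differed by 0.19, by 0.10 without SHPC array 2 and by −0.01 after cyclic loess.

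The sequences before the starts of Rgs16, Pklr and Arrdc4 are shown because these 3 of the 7 genes had the largest differences between the SHPC groups and because their windows hold E-box-like letters of the kind that ChREBP and Mlx are known to bind. They are from RefSeq, build GRCr8, 5′ to 3′ on the gene's strand, with the matched letters in capitals. For Rgs16 (chr13:68437870-68438124, + strand) the bases run from −250 to 5, for Pklr (chr2:176841014-176841263, + strand) and Arrdc4 (chr1:131793426-131793675, − strand) from −250 to −1, counted from the transcript start.
Rgs16: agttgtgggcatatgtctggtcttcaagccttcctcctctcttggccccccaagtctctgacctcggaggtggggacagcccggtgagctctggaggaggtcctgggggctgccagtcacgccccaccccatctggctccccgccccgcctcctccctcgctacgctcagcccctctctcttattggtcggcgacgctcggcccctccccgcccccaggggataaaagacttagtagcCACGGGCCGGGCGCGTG
Pklr: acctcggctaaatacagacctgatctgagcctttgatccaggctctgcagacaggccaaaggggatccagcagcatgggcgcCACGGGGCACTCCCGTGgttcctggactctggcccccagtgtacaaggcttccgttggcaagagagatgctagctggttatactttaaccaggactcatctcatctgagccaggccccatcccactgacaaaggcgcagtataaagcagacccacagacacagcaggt
Arrdc4: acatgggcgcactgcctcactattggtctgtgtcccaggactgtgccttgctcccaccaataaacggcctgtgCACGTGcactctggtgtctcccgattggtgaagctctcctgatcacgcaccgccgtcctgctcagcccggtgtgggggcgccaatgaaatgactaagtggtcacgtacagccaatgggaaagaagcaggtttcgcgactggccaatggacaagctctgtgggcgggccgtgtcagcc

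The capitals in Rgs16 and Pklr match the paired pattern CANGNGNNNNNCNCNTG, which reads the same on both strands. The match ran from −168 to −152 in Pklr and from −12 to 5, across the transcript start, in Rgs16. This pattern was found in the windows of 160 of 27457 genes, or 0.583%, in windows of 300 bases from 250 before to 50 after the start. The capitals in Arrdc4 are the single E-box CACGTG, at −177 to −172, which also stood in the Mlx window at −70 to −65. The single E-box, which also reads the same on both strands and which either end of the paired pattern accepts, was found for 7.08% of genes. Of the 8 genes, 6 had a window, and those of Khk and Mlxipl held neither pattern. A match describes letters in the window and does not show binding.

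Rgs16 set the SHPCs without transplantation apart from both other groups. Its level (probe set 17681025) was 9.03, 8.87 and 8.56 on the transplanted SHPC arrays, 7.23, 7.15 and 7.33 on the SHPC arrays, and 8.80, 8.05 and 8.51 on the hepatocyte arrays. The 3 SHPC arrays lay close together and below all others, and the transplanted SHPC and hepatocyte arrays overlapped. The group means were 8.82 ± 0.24, 7.24 ± 0.09 and 8.45 ± 0.38 (SD, n = 3 each). Transplanted SHPCs were thus 1.58 higher than SHPCs on the log2 scale, or 3.00-fold. This difference helped to choose the gene and is given as a description, with no test. It was 1.54 without SHPC array 2, and 1.36 to 1.71 over all 18 alternative settings.

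Arrdc4, an alpha-arrestin gene, was highest in the transplanted SHPCs. Its level (probe set 17633894) was 6.21, 6.15 and 6.15 on the transplanted SHPC arrays, 5.68, 4.87 and 5.51 on the SHPC arrays, and 5.61, 5.44 and 5.04 on the hepatocyte arrays. The transplanted arrays lay above all others, and the SHPC and hepatocyte arrays overlapped. The means were 6.17 ± 0.04, 5.35 ± 0.42 and 5.36 ± 0.29 (SD, n = 3 each), a difference of 0.82 between the SHPC groups, or 1.77-fold. SHPC array 2 held the lowest of the 9 values, and without it the difference was 0.58.

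Txnip, the gene of thioredoxin-interacting protein, did not separate the groups. Its level (probe set 17741001) was 7.96, 7.96 and 7.90 on the transplanted SHPC arrays, 7.93, 7.34 and 8.06 on the SHPC arrays, and 8.40, 7.62 and 7.97 on the hepatocyte arrays. All groups overlapped, and the SHPC groups differed by 0.16, or by −0.05 without SHPC array 2. For the related arrestin gene Arrdc4 the SHPC groups were apart with and without that array, and the difference between the pair of genes was not tested.

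Pklr, the gene of liver pyruvate kinase, which makes pyruvate in the last step of glycolysis, was highest in the transplanted SHPCs. Its level (probe set 17739986) was 9.06, 9.21 and 8.86 on the transplanted SHPC arrays, 8.22, 7.39 and 7.61 on the SHPC arrays, and 8.34, 7.27 and 7.58 on the hepatocyte arrays. All 3 transplanted arrays lay above the other 6, which overlapped each other. The means were 9.04 ± 0.18, 7.74 ± 0.43 and 7.73 ± 0.55 (SD, n = 3 each), so that transplanted SHPCs were 1.30 higher than SHPCs, or 2.47-fold. Without SHPC array 2 that difference was 1.13.

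Khk encodes ketohexokinase, which traps fructose as fructose 1-phosphate. Its level (probe set 17820752) was 8.91, 9.05 and 8.93 on the transplanted SHPC arrays, 8.77, 8.16 and 8.68 on the SHPC arrays, and 8.71, 8.33 and 8.53 on the hepatocyte arrays. Every transplanted array lay above every other array, by a narrow gap. The SHPC groups differed by 0.43, and by 0.24 without SHPC array 2.

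Gpd1 encodes the cytosolic glycerol 3-phosphate dehydrogenase that makes the backbone of triglycerides from a glycolytic intermediate. Its level (probe set 17832266) was 9.27, 9.48 and 9.10 on the transplanted SHPC arrays, 9.27, 8.65 and 9.27 on the SHPC arrays, and 9.55, 8.72 and 9.28 on the hepatocyte arrays. The groups overlapped, with the lowest value in each untransplanted group on its array 2, and 3 of the 9 arrays held exactly the same deposited value. The SHPC groups differed by 0.22, by 0.01 without SHPC array 2 and by −0.03 after cyclic loess.

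**Figure D1:**
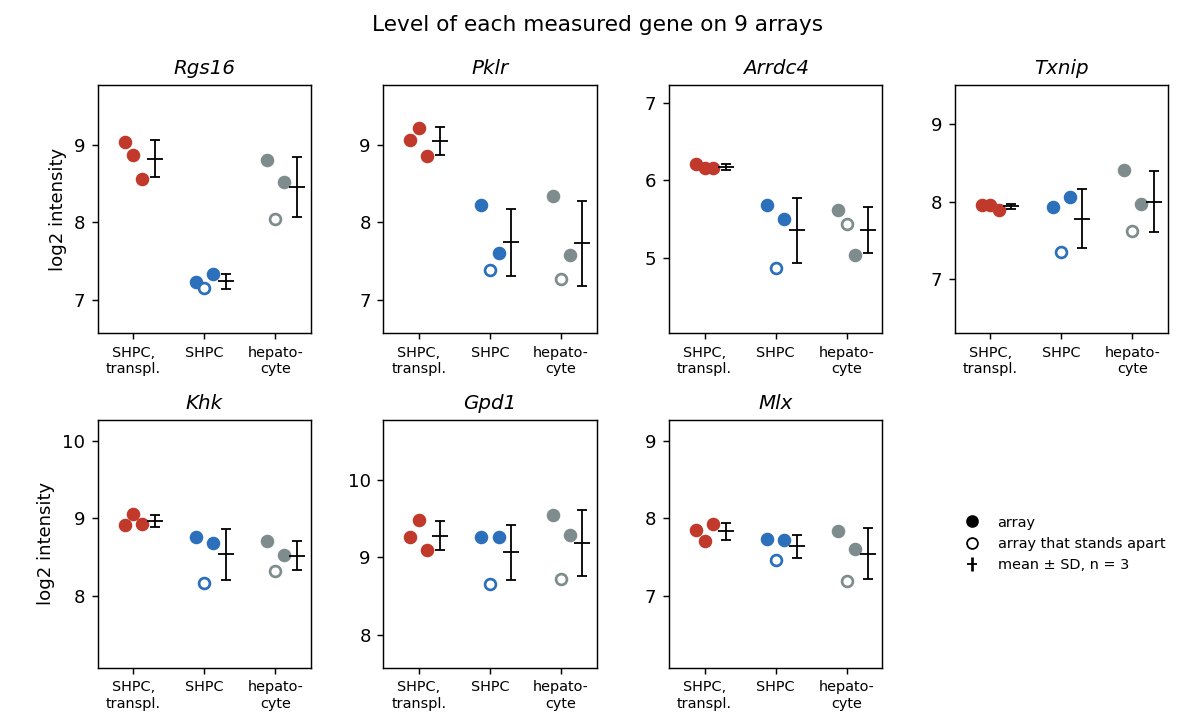
Log2 intensity (y axis) of the 7 measured genes on each array, by group (x axis: transplanted SHPCs, SHPCs, hepatocytes), with mean ± SD of 3 arrays beside the points and open circles for SHPC array 2 and hepatocyte array 2. Rgs16 was lowest on the 3 SHPC arrays, at 7.15 to 7.33, and Pklr and Arrdc4 were highest on the 3 transplanted SHPC arrays.

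Between transplanted SHPCs and SHPCs, all 7 measured genes had a difference above 0, with a median of 0.43, and for 4 of the 7 the groups did not overlap. Over all 15793 genes tested the median was 0.02, 53.0% were above 0, and for 10.6% the transplanted arrays lay wholly above. The genes were chosen with this contrast in view, so nothing is read from these counts. Without both arrays that stood apart, 6 of 7 were above 0 with a median of 0.24, and the same 4 genes, Rgs16, Pklr, Arrdc4 and Khk, had groups that did not overlap, against 15.2% of all genes. The Kupffer cell markers then had a median of 0.36. Centring each array on its median moved the median of all genes from 0.02 to 0.12. In limma 1 of 15793 genes, 0.00633%, passed an adjusted p of 0.05 in this contrast, 0 of them higher, and 5.07% were higher and 2.29% lower at an unadjusted p under 0.05.

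The comparison of transplanted SHPCs with hepatocytes sets the clusters against the parenchyma of livers without transplantation. It shares the transplanted arrays with the contrast above, on which the genes were chosen, so its p-values are not independent of that choice. Pklr was 1.31 ± 0.29 higher on the log2 scale (SE), or 2.48-fold, Arrdc4 0.81 ± 0.22 higher and Khk 0.44 ± 0.18 higher, each with all 3 transplanted arrays above all 3 hepatocyte arrays. None of them passed over all genes, with limma adjusted p-values of 0.0732, 0.158 and 0.425. Rgs16 differed by 0.36 ± 0.20 (limma adjusted p = 0.596), Mlx by 0.29 ± 0.18, Gpd1 by 0.10 ± 0.24 and Txnip by −0.06 ± 0.23, all with overlapping groups. In limma 0 of 7 genes passed, against 1.18% of all genes tested (0.861% higher and 0.317% lower). At an unadjusted p under 0.05, 3 of 7 were higher and 0 lower, against 7.07% and 3.32% of all genes. For 3 of 7 the transplanted arrays lay wholly above, against 12.6% of all genes, and 6 of 7 were above 0, against 49.8%.

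These calls depended on the arrays included. Pklr passed without SHPC array 2 (limma adjusted p = 0.0356) and missed without both arrays that stood apart (0.0702). Its adjusted p lay between 4.28e-04 and 0.299 over 18 alternatives in limma, with changes of 1.08 to 1.62. Arrdc4 passed without SHPC array 2 (0.0248) and without both (0.0342), in a range of 2.39e-04 to 0.454. Khk passed with array weights (limma adjusted p = 0.0105), in a range of 0.0105 to 0.857. Without hepatocyte array 2 the difference was 0.16 for Rgs16 and 0.11 for Mlx, and over the arrays left out one at a time it ran from 0.16 to 0.54 and from 0.11 to 0.43.

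The comparison of SHPCs with hepatocytes, both from livers without transplantation, sets the clusters against the cells next to them. Rgs16 was 1.22 ± 0.20 lower in SHPCs on the log2 scale (SE), or 2.33-fold, with every SHPC array below every hepatocyte array. Rgs16 was chosen with its low level on these same SHPC arrays in view, so the p-values given for it here are not independent of that choice and support nothing. Adjusted over all genes its limma p was 0.114, which misses the threshold. For these groups the deviations of same-numbered arrays from their group means correlated at 0.53, 0.70 and 0.34 across genes. These values are not independent, since deviations cancel within a group and both arrays that stood apart carry the same number. They do not show that the numbers pair arrays. With the number as a replicate block among these 6 arrays, the limma adjusted p of Rgs16 was 0.00933, and 147 genes passed in place of 10. Without both arrays that stood apart it was 0.0327, and over 19 alternatives its adjusted p lay between 0.00157 and 0.509 with changes of −1.42 to −1.04.

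For the other 6 genes no difference beyond the spread between arrays was measured. Pklr differed by 0.01 ± 0.29, Arrdc4 by −0.01 ± 0.22, Khk by 0.02 ± 0.18, Mlx by 0.09 ± 0.18, Gpd1 by −0.12 ± 0.24 and Txnip by −0.22 ± 0.23 (SE, limma adjusted p = 1 for each). Their groups overlapped, and with 3 arrays each the SE leaves room for moderate differences in either direction. In limma 0 of the 7 genes passed without a block, against 0.0633% of all genes (0.0317% higher and 0.0317% lower). At an unadjusted p under 0.05, 0 of 7 were higher and 1 of 7 lower, against 2.31% and 1.81% of all genes. Rgs16 was the 1 of 7 whose SHPC arrays lay wholly below, against 2.49% of all genes. In 0 of 7 they lay wholly above, against 2.72%, and 3 of 7 were above 0, against 48.6%.

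**Figure D2:**
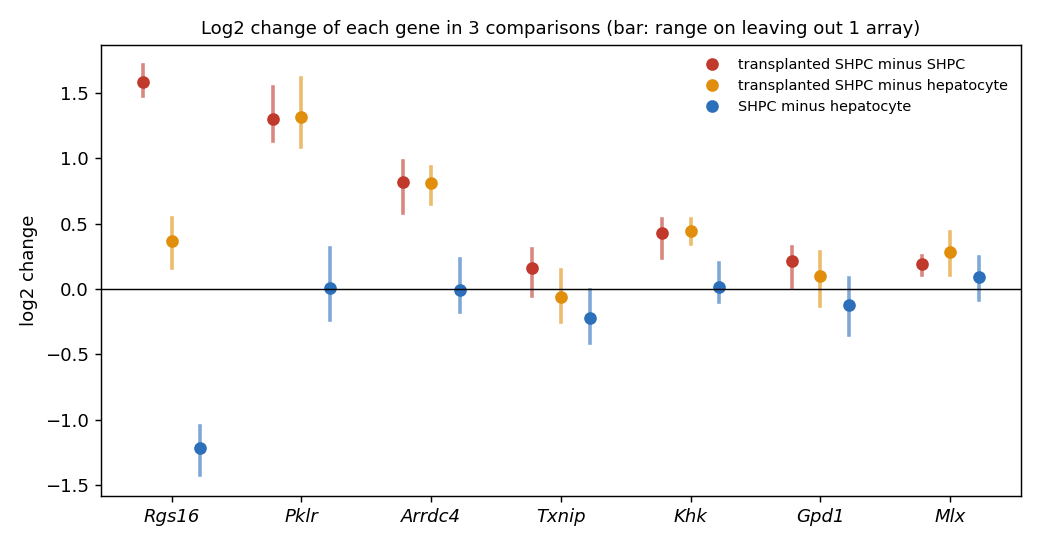
Log2 change (y axis) of the 7 genes (x axis) in the 3 comparisons, with a bar for the range of the change when 1 of the 9 arrays was left out. Rgs16 was at 1.58 for transplanted SHPCs minus SHPCs and −1.22 for SHPCs minus hepatocytes, while Pklr was at 1.30 and 0.01.

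Rgs16 was set beside the genes whose levels followed it most closely, by the root mean square (RMS) difference of log2 values over the 9 arrays after centring each gene. The closest of the other tested genes was Prss8, the gene of the serine protease prostasin, at an RMS difference of 0.317. It was followed by Slc25a52, of the mitochondrial carrier family, at 0.326, and by the cytochrome P450 gene Cyp2c13 at 0.385. Ephx1, the gene of microsomal epoxide hydrolase, came next at 0.390, then Upp2, a uridine phosphorylase gene, at 0.395. For scale, Rgs16 itself varied by 0.711 around its own mean. Closeness to Rgs16 favours genes that are low in SHPCs, and all 5 had their lowest group mean there. Prss8 had means of 7.25, 6.11 and 6.64 in transplanted SHPCs, SHPCs and hepatocytes. Ephx1 lay at −0.11, −1.58 and −0.48 around its own mean on the SHPC arrays, lowest on array 2, which stood apart. Slc25a52 was dim, with a mean of 2.60 in SHPCs, so its range there is uncertain.

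**Figure D3:**
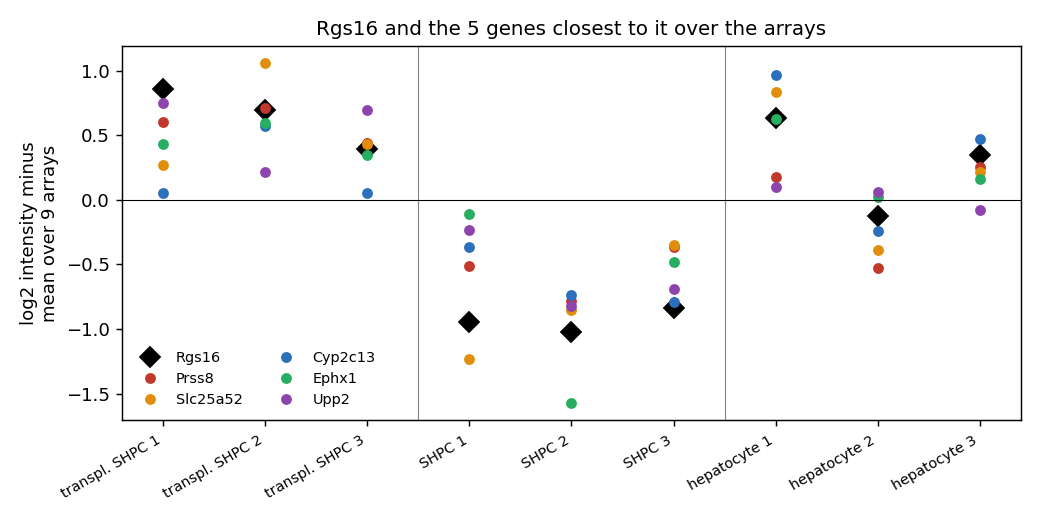
Log2 intensity minus the gene's mean over 9 arrays (y axis) for Rgs16 and the 5 genes closest to it, on each array (x axis). All 6 genes lie below 0 on the 3 SHPC arrays, which the choice of the 5 by closeness to Rgs16 favours.

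Of other regulators of the same family, which bind E-boxes as Mlx or Max partners, 9 of 10 listed genes were measured. In limma 0 passed in any of the 3 comparisons, also at an unadjusted p under 0.05. Few of all genes passed either: 0.00633% for transplanted SHPCs minus SHPCs, 0.0633% for SHPCs minus hepatocytes and 1.18% for transplanted SHPCs minus hepatocytes. Mlxip, the gene of the ChREBP relative MondoA, was at 5.22, 5.37 and 5.10 on the transplanted SHPC arrays, 5.26, 5.40 and 5.23 on the SHPC arrays and 5.13, 5.49 and 4.94 on the hepatocyte arrays, with all groups overlapping. The median change of the 9 genes was 0.02 between the SHPC groups and 0.05 between transplanted SHPCs and hepatocytes.

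The gene lists were chosen with earlier results of these data known, so their counts and p-values are a description and not independent support. Among genes that bring sugar into the cell or handle phosphorylated sugars, the transplanted arrays lay above all SHPC arrays in 7 of 7 measured genes, against 10.6% of all genes. Their median change was 0.65, 0 passed in limma and 4 were higher at an unadjusted p under 0.05, against 5.07% of all genes. Tkfc, which phosphorylates the glyceraldehyde released from fructose, was at 8.96, 9.01 and 8.80 on the transplanted arrays and 8.32, 7.55 and 7.91 on the SHPC arrays, with no overlap. Without both arrays that stood apart the median was 0.38, and in 7 of 7 the transplanted arrays lay above. Against hepatocytes 7 of 7 were above 0 with a median of 0.79, and 1 of 7 passed, against 0.861% of all genes higher. It was Pfkfb1, the gene of the liver enzyme that sets fructose 2,6-bisphosphate, by 0.99 ± 0.20 (limma adjusted p = 0.0476). Its call ended in 8 of the alternatives, among them leaving out any transplanted array, with limma adjusted p between 0.00352 and 0.227. Without both arrays that stood apart 3 passed, against 405 of 15793 genes higher at that setting: Pfkfb1 and, named after their values were seen, the pentose phosphate genes Tkt and Taldo1. The glucose transporter gene Slc2a2 and the glucose 6-phosphate transporter gene Slc37a4 differed from hepatocytes by 0.30 ± 0.28 and 0.56 ± 0.21 and did not pass (limma adjusted p = 0.749 and 0.380).

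Lipogenic genes known as ChREBP targets are in many cases also targets of the insulin-driven factor encoded by Srebf1. This list too was chosen with earlier results of these data known, so its counts and p-values are not independent support. Between the SHPC groups 13 of 13 measured genes were above 0, against 53.0% of all genes, with a median of 1.54. In limma 0 passed and 10 were higher at an unadjusted p under 0.05, against 5.07% of all genes. Thrsp, a regulator of lipogenesis, was at 11.37, 11.17 and 11.25 on the transplanted arrays, 10.31, 7.69 and 7.73 on the SHPC arrays and 9.27, 7.99 and 8.06 on the hepatocyte arrays. Against hepatocytes 12 of 13 were above 0, against 49.8% of all genes, and 2 passed, against 0.861% higher. Acacb, an acetyl-CoA carboxylase gene, rose by 1.65 ± 0.25 (limma adjusted p = 0.0205), and Pnpla3, a lipid-droplet lipase gene, by 2.03 ± 0.38 (0.0368). In limma the call of Acacb ended without each transplanted or hepatocyte array in turn, with an adjusted p of up to 0.111, and that of Pnpla3 also without SHPC array 3 (0.0506) and without both arrays that stood apart (0.0576), with up to 0.166. Without both, 4 of the 13 passed, against 405 of 15793 genes higher: Acacb and, named after their values were seen, Acaca, Elovl6 and Scd. At that setting the median of all 13 genes between the SHPC groups was 1.26. Acly, Elovl6 and Mid1ip1 were 1.99 ± 0.46, 3.26 ± 0.71 and 1.20 ± 0.30 above hepatocytes and did not pass (limma adjusted p = 0.0857, 0.0735 and 0.126).

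The list of other carbohydrate-responsive genes was likewise chosen with earlier results of these data known, so its p-values are not independent support. Among them, Srebf1 rose against hepatocytes by 2.54 ± 0.32 (SE, limma adjusted p = 0.00748). Srebf1 was the 1 of 7 that passed, against 0.861% of all genes higher. Its level was 8.57, 8.16 and 8.02 on the transplanted SHPC arrays, 7.24, 6.11 and 5.76 on the SHPC arrays and 5.77, 5.73 and 5.63 on the hepatocyte arrays. The transplanted arrays lay above all others. Without transplanted array 1 the call ended (limma adjusted p = 0.0546). Ppp1r3b, a glycogen-targeting subunit of protein phosphatase, differed by 1.42 ± 0.36 (limma adjusted p = 0.123) and Klf10 by 0.01 ± 0.20. Fgf21, a liver hormone gene that ChREBP and the fasting factor PPAR alpha are both known to raise, ran the other way, at 5.03, 4.90 and 3.96 on the transplanted arrays, 5.46, 5.95 and 5.33 on the SHPC arrays and 5.38, 5.54 and 5.34 on the hepatocyte arrays. Its difference between the SHPC groups was −0.95 ± 0.27 and did not pass (limma adjusted p = 0.440).

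Related genes and enzymes were set beside the 7. Of 4 other alpha-arrestin genes, Arrdc3 was at 10.08, 9.36 and 9.10 on the transplanted SHPC arrays, 8.58, 7.41 and 7.44 on the SHPC arrays and 8.82, 7.84 and 7.25 on the hepatocyte arrays, a difference of 1.71 ± 0.44 between the SHPC groups (SE, limma adjusted p = 0.355) with the transplanted arrays above all others. Arrdc1, Arrdc2 and Arrdc5 differed by −0.10 to 0.09. Of 9 tested genes of small RGS proteins, 0 passed in limma in any comparison. At an unadjusted limma p under 0.05, 2 differed for transplanted SHPCs minus SHPCs, against 5.07% higher and 2.29% lower of all genes. For SHPCs minus hepatocytes it was 1, against 2.31% and 1.81%, and for transplanted SHPCs minus hepatocytes 0, against 7.07% and 3.32%. Of all genes 0.00633%, 0.0633% and 1.18% passed in these comparisons, in that order. The changes of the 9 genes between the SHPC groups ran from −0.48 to 0.45. Rgs5 was at 6.44, 6.49 and 6.42 on the transplanted SHPC arrays, 6.21, 5.78 and 6.17 on the SHPC arrays and 6.84, 6.43 and 6.42 on the hepatocyte arrays, and Rgs2 differed by 0.13 ± 0.13 between the SHPC groups. Gpd2, the mitochondrial partner of Gpd1, differed by −0.57 ± 0.24 between transplanted SHPCs and hepatocytes, and the glycerol kinase gene Gk, the other measured gene of that list, by −0.51 ± 0.18 (limma adjusted p = 0.448 and 0.314). SHPCs without transplantation differed from hepatocytes by −0.65 ± 0.24 for Gpd2 and −0.15 ± 0.18 for Gk. Between the SHPC groups the differences were 0.08 and −0.36. Between SHPCs and hepatocytes 0 genes of the sugar, lipogenic, other carbohydrate-responsive and arrestin lists passed in limma, against 0.0633% of all genes. At an unadjusted limma p under 0.05 it was also 0, against 2.31% higher and 1.81% lower of all genes.

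**Figure D4:**
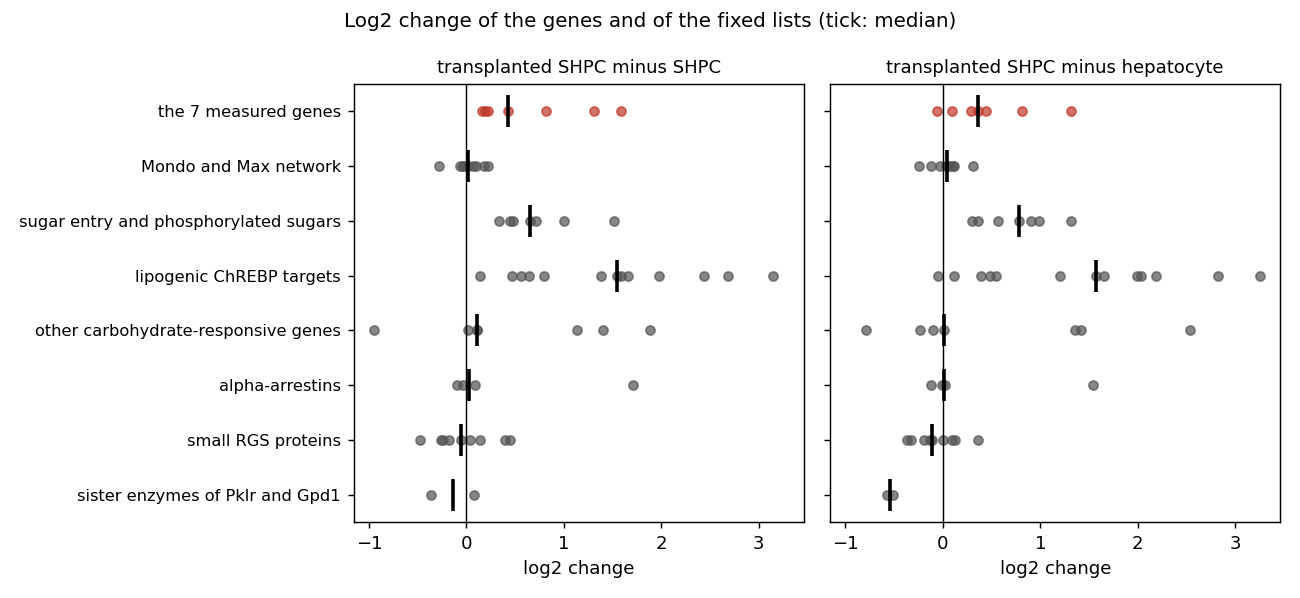
Log2 change (x axis) of the 7 genes and of the listed genes around them (rows) for transplanted SHPCs minus SHPCs and transplanted SHPCs minus hepatocytes, with 1 point per gene and a tick at each median. The lipogenic list has medians of 1.54 and 1.57, the 7 genes 0.43 and 0.36.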

How the data were processed

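Per the submitters' processing notes the authors used RMA, a method that removes background, equalises arrays and combines probes. Its deposited intensity values cover 36685 probe sets and are linear, and log2 was taken here. No version or settings of RMA were given in these sources. The deposited arrays were not fully equal. The median linear intensity was 24.1 on SHPC array 2 and 23.0 on hepatocyte array 2, against 19.6 to 20.6 on the others. The SD of the log2 values was 1.94 and 1.98 on these arrays, against 2.09 to 2.13. Groups followed the cell type label; for hepatocytes the description label speaks of SHPCs. Genes were named from the platform annotation (18511 probe sets with 1 symbol, 575 with several, 17599 unnamed), and the brightest of several probe sets stood for a gene. Genes were tested if 3 arrays exceeded the array's 25th percentile, which left 15793. Comparisons used limma 3.58.1 in R 4.3.3, 1 fit of 3 group means over 9 arrays with 6 residual degrees of freedom, eBayes and Benjamini-Hochberg adjustment over all genes at 0.05, tested on simulated data. The number of arrays limits the precision.

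The genes, lists and alternatives were chosen with earlier results of these data known. Named were the 7 measured genes, listed genes that passed, a set fixed by name where measured, and the 5 genes closest to Rgs16. Some listed genes, among them Gckr, G6pc, Pgd, Max, Pkm, Gpd1l, Fasn, Angptl8, Apoc3, Ppp1r3c and Apoa1 had no probe set named for them alone and were not analysed here. Replicate numbers come from the titles. Deviations of same-numbered arrays correlated above 0.1 in each pair for SHPCs and hepatocytes and not for the transplanted group. The replicate block among SHPC and hepatocyte arrays, and the counts over the genes and lists without both arrays that stood apart, were added after seeing the data.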

Additional observations from a re-analysis of the deposited data

How the results depend on the processing

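The differences of Rgs16, Pklr, Arrdc4 and Khk between the SHPC groups kept their sign in all 18 alternatives, and so did the median over the 7 genes, at 0.19 to 0.54. Over the arrays left out one at a time the median ran from 0.24 to 0.54 between the SHPC groups, from −0.22 to 0.18 for SHPCs minus hepatocytes and from 0.16 to 0.54 for transplanted SHPCs minus hepatocytes. Counts of genes called by limma moved by more than 1.5 times in many settings, but not in all. Without the filter on dim genes they stayed at 1 for transplanted SHPCs minus SHPCs and at 10 for SHPCs minus hepatocytes. Taking the mean over all probe sets of a gene left both counts unchanged. For transplanted SHPCs minus SHPCs the count of 1 (0 higher, 1 lower) became 0 after median centring (963 at an unadjusted p under 0.05), 0 with the compared groups alone (1144), 17 after quantile normalization (3 higher, 14 lower), 40 after cyclic loess (16 higher, 24 lower), 259 with array weights and 23 without both arrays that stood apart. For SHPCs minus hepatocytes the count of 10 became 0 (511), 0 (424), 17, 34, 375 and 48 in the same order, and for transplanted SHPCs minus hepatocytes the count of 186 became 47, 304, 328, 440, 2685 and 575. With 1 array left out the counts were 0 to 24, 0 to 53 and 31 to 472. The cause was not tested.

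The replicate block over all 9 arrays gave 64, 35 and 367 genes in the 3 comparisons. The limma adjusted p was then 0.0385 for Rgs16 in SHPCs minus hepatocytes, on SHPC arrays that also entered the choice of the gene. For Pklr in transplanted SHPCs minus hepatocytes it was 0.0114. That the numbers pair arrays is not known for any group, and same-numbered transplanted arrays did not correlate with the others. The replicate block among SHPC and hepatocyte arrays alone gave 147 genes and changed the call of no other of the 7 genes.

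Signs turned for values near 0. For SHPCs minus hepatocytes Pklr was at −0.0018 after median centring and −0.045 without both arrays that stood apart, and Arrdc4 was at 0.43 with array weights and 0.27 without both. With 1 array left out Pklr ran from −0.23 to 0.31, Arrdc4 from −0.17 to 0.23, Khk from −0.10 to 0.20, Mlx from −0.084 to 0.24, Gpd1 from −0.35 to 0.086 and Acacb from −0.14 to 0.41. For transplanted SHPCs minus hepatocytes Txnip was at 0.033 after median centring, and Gpd1 at −0.069 after quantile normalization, −0.095 after cyclic loess and −0.13 without both. With 1 array left out Txnip ran from −0.25 to 0.14 and Gpd1 from −0.13 to 0.28. Each of the 7 genes was above the 25th percentile on all 9 arrays. That percentile is the filter used here and not an estimate of background. Arrdc4 held the lowest value, 4.87 on SHPC array 2, and compression of low signals was not tested.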
